A study of Mus musculus with 6 samples.

Results

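The 10 genes described here were grouped under the suppressive and tissue-repair output of regulatory T (Treg) cells: Tgfb1 (ENSMUSG00000002603), Lrrc32 (ENSMUSG00000090958), Itgb8 (ENSMUSG00000025321), Furin (ENSMUSG00000030530), Il10 (ENSMUSG00000016529), Ebi3 (ENSMUSG00000003206), Ifng (ENSMUSG00000055170), Areg (ENSMUSG00000029378), Gzmb (ENSMUSG00000015437) and Il1rl1 (ENSMUSG00000026069). They were taken from a list of gene identifiers paired with these names, and all 10 were found among the 54446 mouse gene identifiers of the files. The mRNAs of tumour Treg cells that were recovered by immunoprecipitation (IP) of YTHDF2 were compared with the total RNA of such lysates (Input), in 3 libraries of each kind. The cells were wild-type CD45+ CD4+ Foxp3-GFP+ Treg cells from B16F10 tumours, a mouse melanoma line grown under the skin. For the Input, 10% of the lysate was set aside, and no antibody was used. For the IP, the remainder was kept for 4 hours with beads carrying an antibody to mouse YTHDF2 and washed 6 times. The sort rests on a reporter of Foxp3, and age, sex and the pooling of animals are not stated in the labels. A precipitation with a control antibody, or from cells without YTHDF2, was not analysed here, so recovery here is only the level in the IP set against that in the Input.

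Treg cells restrain other immune cells partly through secreted proteins. Transforming growth factor beta 1 (TGF-beta 1) is made as a precursor that the protease furin cleaves; the cleaved complex stays latent, is held on the Treg surface by GARP (the product of Lrrc32) and is released for signalling by the integrin whose beta chain is encoded by Itgb8. IL-10 and IL-35 (of which Ebi3 encodes a subunit) are further suppressive cytokines, granzyme B kills target cells, and amphiregulin (Areg) supports tissue repair in Treg cells that carry the IL-33 receptor ST2 (Il1rl1). YTHDF2 binds N6-methyladenosine in mRNA in the cytoplasm and promotes decay of the bound mRNA.

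Of the 10 genes, 2 were depleted in the IP, Gzmb and Ebi3, and 0 were enriched; the other 8 did not pass the test (edgeR's quasi-likelihood test, Benjamini-Hochberg adjusted p under 0.05 over 15615 genes). Of all genes tested, 6.11% were depleted and 4.33% enriched, and neither 0 nor 2 of 10 genes can be told from these shares. At an unadjusted p under 0.05, 3 of the 10 genes were higher in the IP (10.0% of all genes tested) and 4 were lower (13.9%). DESeq2 called 1 of the 10 genes enriched (6.63% of the genes it tested) and limma voom called 0 (5.62%). As depleted, DESeq2 called 2 of the 10 genes (10% of the genes it tested) and limma voom called 1 (11%). As a median over genes, the log2 fold change was -0.23 for the 10 genes and -0.12 for all genes tested. In this setting 4 of the 10 estimates were above 0 and 6 below.

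All 10 genes had reads in every library and passed the filter on low counts. Of these, 8 lay above the upper quartile of mean level, 49.9 reads per 1000000 gene-assigned reads (CPM), where 14.7% of genes were enriched and 16.9% depleted. The other 2, Ifng and Ebi3, had mean levels of 9.88 and 12.6 CPM. For 6 of the 10 genes the IP and Input libraries did not overlap, 3 with the IP above (12.8% of all genes tested) and 3 with the IP below (23.7%). In bulk RNA, a low Input level does not tell fewer cells that express a gene from less of its RNA per cell.

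The libraries held 6847731 to 8465453 gene-assigned reads in the IP and 10029733 to 14704617 in the Input, of which the 10 genes took 0.109% to 0.143% and 0.111% to 0.171%. IP replicate 3 listed the fewest gene identifiers, 14200 against 18501 and 19991 in the other IP libraries, and values that it moves by over 1.5 times, or whose call it changes, are also given without it. Replicates differed by more than sampling noise in every pair (chi-square per degree of freedom of at least 16.1). The labels do not say whether replicates came from separate animals, and the p-values cover the spread among these libraries alone, which could be technical. The files give no names for gene identifiers, so markers of Treg cells and of other cell types, and other genes of these pathways, were not analysed here.

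**Figure D1:**
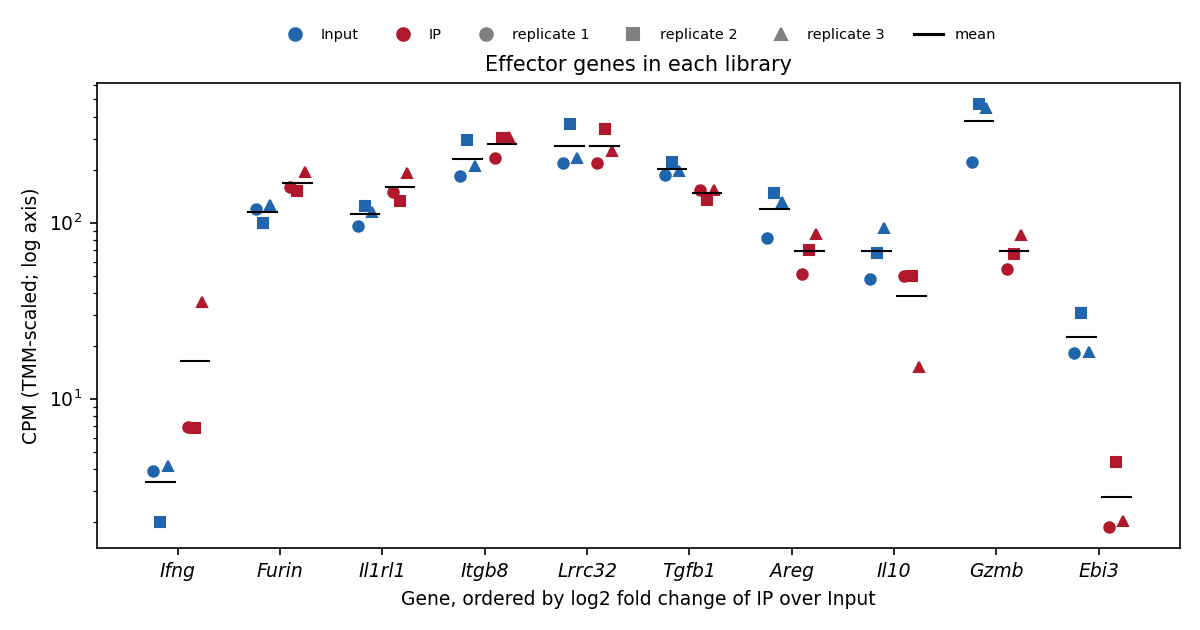
Level of each of the 10 genes (CPM with TMM-scaled library sizes, log axis) in the 3 Input (blue) and 3 IP (red) libraries, with the replicate number as the symbol and the group mean as a bar. Gzmb and Ebi3 lie far lower in the IP, Lrrc32 covers nearly the same range in both groups, and IP replicate 3 stands apart for Ifng and Il10.

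Gzmb encodes granzyme B, a serine protease of cytotoxic granules that Treg cells can also use against their targets. It had the lowest adjusted p of the 10 genes. Its level was 220, 468 and 448 CPM in Input replicates 1, 2 and 3, and 54.6, 66.5 and 84.8 CPM in IP replicates 1, 2 and 3. The groups were thus far apart: the lowest Input library held 2.59-fold the level of the highest IP library. On average the Input held 379 ± 138 CPM (SD, n = 3) and the IP 68.6 ± 15.2 CPM (SD, n = 3). IP over Input gave a log2 fold change of -2.46 ± 0.31 (SE), a level 5.52-fold lower in the IP (edgeR, adjusted p = 0.00111). Of all genes tested, 8.93% had a lower log2 fold change. The call held in all 18 alternative settings, with a log2 fold change from -2.98 to -2.26.

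Gzmb lies on chromosome 14 (chr14:56258836-56262334, mm10, RefSeq annotation of GRCm38.p6), where the annotation lists 7 granzyme genes in all. Reads that align equally well to more than 1 of them can be set aside in counting, and whether Gzmb lost such reads was not tested.

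Ebi3 encodes the beta subunit that IL-35 shares with IL-27. It had the lowest log2 fold change of the 10 genes, at a low level. It was found at 18.1, 30.8 and 18.4 CPM in Input replicates 1, 2 and 3 and at 1.87, 4.36 and 2.02 CPM in the IP replicates, from 16, 30 and 17 reads. All IP libraries were below all Input libraries, the lowest Input library holding 4.15-fold the level of the highest IP library. IP over Input gave a log2 fold change of -3.03 ± 0.76 (SE), a level 8.14-fold lower in the IP (edgeR, adjusted p = 0.0336).

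This call for Ebi3 rests on few IP reads and was lost in 7 of 18 alternative settings, with adjusted p-values between 1.00e-05 and 0.272. Without IP replicate 1 the adjusted p of edgeR's test was 0.0764, and without Input replicate 1, 2 or 3 it was 0.117, 0.272 or 0.129. With libraries of equal number fitted as blocks it was 0.0654. The direction held in all 18 settings, with log2 fold changes from -3.55 to -2.82. Ebi3 (chr17:55952623-55957022, mm10) overlaps the annotated genes Zfp119b and Gm16712, and reads in an overlap can be left uncounted or, without strand, be taken from the neighbour.

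**Figure D2:**
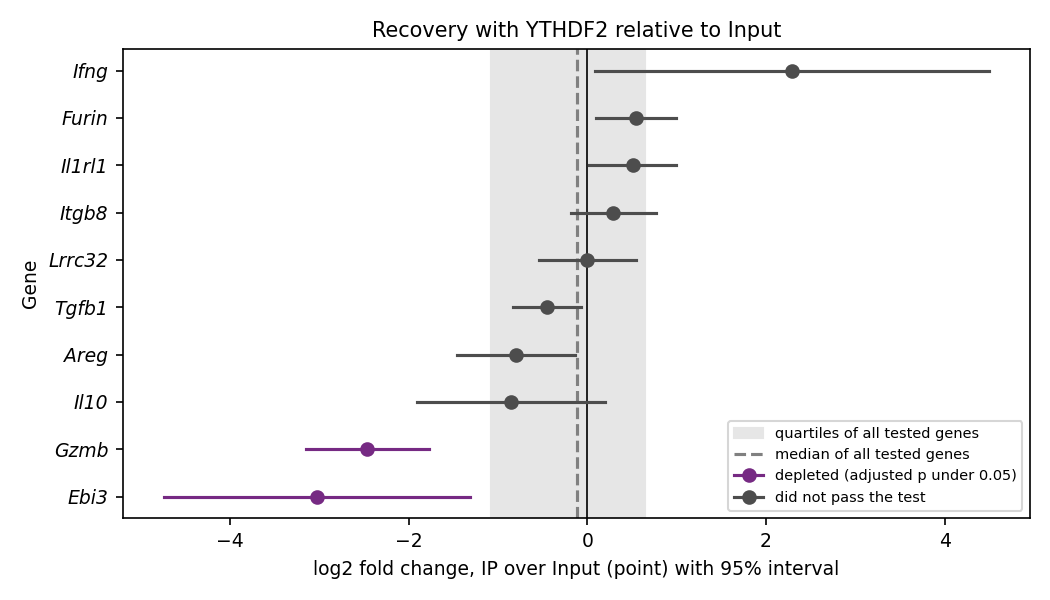
Log2 fold change of IP over Input (x axis) for each of the 10 genes with its 95% interval from edgeR's quasi-likelihood fit; the grey band spans the quartiles of the 15615 genes tested and the dashed line marks their median of -0.12. Gzmb and Ebi3 are the genes that passed the test, and the intervals of Itgb8, Lrrc32 and Il10 include 0. The intervals are not adjusted for the number of genes tested. Those of Ifng, Furin, Il1rl1, Tgfb1 and Areg exclude 0, though these genes did not pass the test.

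None of the 4 TGF-beta genes passed the test, and in the main setting their estimates fell on both sides of 0, from Furin at 0.55 to Tgfb1 at -0.45 on the log2 scale. Furin, the protease that cleaves pro-TGF-beta 1 and many other precursors, had 119, 99.1 and 126 CPM in Input replicates 1, 2 and 3 and 159, 151 and 194 CPM in IP replicates 1, 2 and 3. All IP libraries lay above all Input libraries, by 1.20-fold at the narrowest. IP over Input gave a log2 fold change of 0.55 ± 0.20 (SE), or 1.46-fold (edgeR, adjusted p = 0.118). With upper quartile factors Furin was called enriched (0.75, adjusted p = 0.0378 in edgeR), and with library sizes from all reads its log2 fold change was 0.02. Furin lies at chr7:80389194-80405441 (mm10) and overlaps the annotated gene Gm44851.

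Itgb8 encodes the integrin beta 8 chain, which with the alpha V chain binds latent TGF-beta on the Treg surface. Its level was 185, 292 and 211 CPM in Input replicates 1, 2 and 3 and 234, 301 and 306 CPM in the IP replicates. Input replicate 2 lay within the IP range, so the groups overlapped. Its estimate was 0.29 ± 0.21 on the log2 scale (SE; 95% interval -0.18 to 0.76; edgeR, adjusted p = 0.488), and with library sizes from all reads it was -0.22. Without IP replicate 3 it was 0.19, and without Input replicate 1 or 3 it was 0.07 or 0.15. Itgb8 (chr12:119162803-119238276, mm10) has the longest genomic span of the 10 genes and overlaps the annotated gene Gm52023.

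Lrrc32, the GARP gene, had the estimate closest to 0. Its level was 219, 363 and 233 CPM in Input replicates 1, 2 and 3 and 219, 340 and 255 CPM in IP replicates 1, 2 and 3, so the groups covered nearly the same range. Its estimate was -0.0015 ± 0.24 on the log2 scale (SE; 95% interval -0.55 to 0.54; edgeR, adjusted p = 0.999), and its sign changed with the scaling. The interval leaves room for a change of up to about the size seen for Furin in either direction. Lrrc32 lies at chr7:98489305-98501831 (mm10).

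Tgfb1, the cytokine gene itself, had 186, 219 and 196 CPM in Input replicates 1, 2 and 3 and 153, 135 and 152 CPM in the IP replicates. It had the smallest coefficients of variation of the 10 genes in both groups, 8.54% in the Input and 7.10% in the IP, and all IP libraries lay below all Input libraries. IP over Input gave a log2 fold change of -0.45 ± 0.17 (SE), or 1.37-fold lower (edgeR, adjusted p = 0.135). With library sizes from all reads it was called depleted (-0.98, adjusted p = 0.00423 in edgeR). Tgfb1 lies at chr7:25687002-25705077 (mm10), on the chromosome that also holds Furin and Lrrc32.

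Ratios of read counts within a library do not depend on the scaling, and they were compared for the 6 pairs among the TGF-beta genes. The log2 ratio of Furin to Tgfb1 averaged -0.81 ± 0.29 (SD, n = 3) over Input libraries and 0.19 ± 0.15 (SD, n = 3) over IP libraries, an estimated 2.00-fold difference, and the 2 groups of libraries did not overlap. The log2 ratio of Itgb8 to Tgfb1 averaged 0.17 ± 0.22 (SD, n = 3) over Input libraries and 0.93 ± 0.28 (SD, n = 3) over IP libraries, an estimated 1.69-fold difference, without overlap. Both pairs share Tgfb1, whose own IP libraries all lay below its Input libraries, so they are not separate observations. How often other pairs of genes separate in this way was not tested. Both pairs had p = 0.1 in an exact permutation test (two-sided), the smallest that 3 against 3 libraries allow, and 0.3 after Benjamini-Hochberg adjustment over the 6 pairs. This test cannot pass a threshold of 0.05 with these numbers of libraries, so it does not settle whether the ratios differ.

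The groups overlapped for the other 4 pairs. The difference in log2 ratio, IP minus Input, was 0.46 ± 0.29 (SE) for Lrrc32 to Tgfb1, 0.53 ± 0.41 (SE) for Furin to Lrrc32, 0.30 ± 0.14 (SE) for Itgb8 to Lrrc32 and 0.24 ± 0.32 (SE) for Furin to Itgb8. Input replicate 2, which had the fewest Furin reads at 939, gave the lowest Input ratio in each pair with Furin as the numerator. Without that library the difference was 0.83 in place of 1.00 for Furin to Tgfb1, 0.20 in place of 0.53 for Furin to Lrrc32 and -0.05 in place of 0.24 for Furin to Itgb8, where the sign turned. Without IP replicate 2 the difference for Lrrc32 to Tgfb1 was 0.23 in place of 0.46, and without IP replicate 3 that for Itgb8 to Lrrc32 was 0.19 in place of 0.30. Leaving out a single library changed the sign of no other pair.

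**Figure D3:**
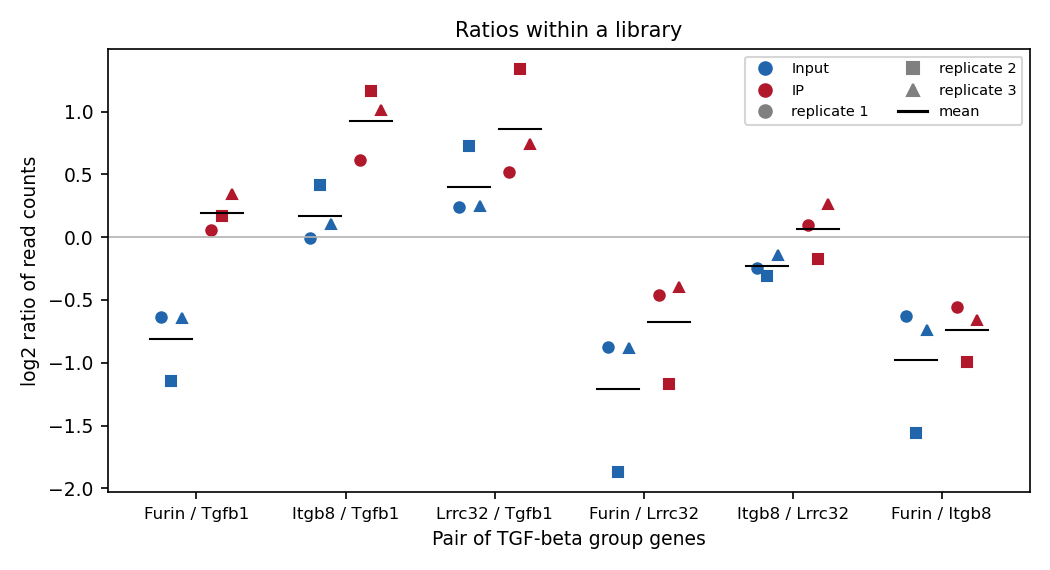
Log2 ratio of read counts between pairs of TGF-beta genes (y axis) in each Input (blue) and IP (red) library, with group means as bars. The groups are apart for Furin to Tgfb1 and Itgb8 to Tgfb1 and overlap for the other 4 pairs.

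Besides Ebi3, the secreted factors Il10, Areg and Ifng did not pass the test. Areg, an epidermal growth factor receptor ligand, had 81.7, 148 and 130 CPM in Input replicates 1, 2 and 3 and 51.2, 69.8 and 85.6 CPM in IP replicates 1, 2 and 3. The groups overlapped by a narrow margin, IP replicate 3 lying above Input replicate 1. For Areg the fitted log2 fold change was -0.80 ± 0.29 (SE), or 1.74-fold lower (edgeR, adjusted p = 0.124). Areg was called depleted without IP replicate 3 (-1.02, adjusted p = 0.0421 in edgeR) and with library sizes from all reads (-1.31, adjusted p = 0.0167). It lies at chr5:91139599-91148432 (mm10).

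Il10, which encodes a cytokine that restrains inflammation at mucosal surfaces and in tumours, had 48.1, 67.3 and 92.7 CPM in Input replicates 1, 2 and 3. In the IP it had 50.0, 49.9 and 15.1 CPM. IP replicates 1 and 2 lay just above the lowest Input library, and IP replicate 3 lay far below every other library. Il10 thus had a log2 fold change of -0.86 ± 0.47 (SE; edgeR, adjusted p = 0.322). Without IP replicate 3 it was -0.50, with an adjusted p of 0.312. Il10 lies at chr1:131019845-131024970 (mm10).

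Ifng encodes interferon gamma, an inflammatory cytokine of effector T cells and natural killer cells that Treg cells of tumours can also make. It had 3.89, 2.00 and 4.16 CPM in Input replicates 1, 2 and 3, from 54, 19 and 48 reads. In the IP it had 6.91, 6.82 and 35.5 CPM, from 59, 47 and 299 reads. All IP libraries lay above all Input libraries, but IP replicate 3 stood far above the others of its group. At 2.29 ± 0.98 (SE), its log2 fold change was the highest of the 10 genes (edgeR, adjusted p = 0.191). DESeq2 called Ifng enriched (2.39, adjusted p = 0.0342), the single call among 18 alternative settings. Without IP replicate 3 the log2 fold change in edgeR's fit was 1.00, with an adjusted p of 0.552. Ifng lies at chr10:118441046-118445894 (mm10).

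Il1rl1, the gene of the IL-33 receptor ST2, had 96.2, 124 and 114 CPM in Input replicates 1, 2 and 3 and 149, 133 and 192 CPM in IP replicates 1, 2 and 3. All IP libraries lay above all Input libraries, the narrowest gap being 1.07-fold. The estimate was a log2 fold change of 0.51 ± 0.21 (SE), or 1.42-fold (edgeR, adjusted p = 0.187), close to the estimate for Furin. With library sizes from all reads it was -0.01, without IP replicate 3 it was 0.31, and without Input replicate 1 it was 0.33. Thus Il1rl1 and Areg, which act in the same repair response, had estimates of opposite sign in the main setting, neither of which passed the test. Il1rl1 lies at chr1:40404864-40465418 (mm10).

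The share of each gene in the reads of all 10 genes also does not depend on the scaling. It depends on the length of the mRNA, so a share is compared between IP and Input and not between genes. Of these reads Gzmb took 24.3% ± 5.05 (SD, n = 3) in Input libraries and 5.59% ± 0.725 (SD, n = 3) in IP libraries. The 4 TGF-beta genes together took 60.2%, 53.7% and 48.7% in Input replicates 1, 2 and 3 and 70.9%, 73.7% and 68.6% in the IP replicates. Il1rl1 took 8.17%, 6.85% and 7.25% in the Input replicates and 13.9%, 10.6% and 14.5% in the IP replicates. The 4 secreted factors together took 14.1% ± 1.40 (SD, n = 3) and 10.4% ± 0.139 (SD, n = 3). Shares add up to a whole, so a lower Gzmb share by itself makes the others higher, and these shares carry no test.

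**Figure D4:**
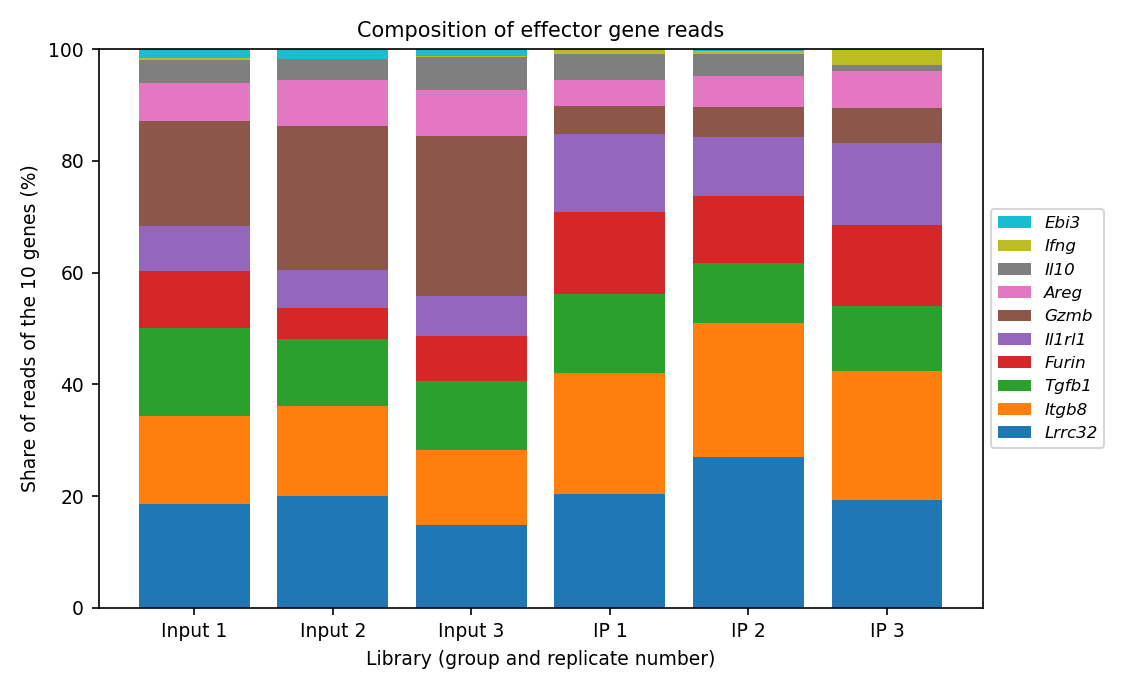
Share of the reads of the 10 genes (y axis, %) taken by each gene in each library (x axis). Gzmb is a broad segment in the Input libraries (18.7% to 28.5%) and a narrow one in the IP libraries (5.06% to 6.41%), while the 4 TGF-beta genes at the base take 68.6% or more in each IP library.

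The order of the log2 fold changes ran from Ifng through Furin, Il1rl1, Itgb8, Lrrc32, Tgfb1, Areg, Il10 and Gzmb to Ebi3. It was not settled between neighbours. Of the 9 neighbouring pairs, the ratio within libraries separated IP from Input for Ifng to Furin, and overlapped for the other 8. The pairs were formed from the order found in these same libraries, so this separation is not separate support for that order. The interval of Ifng in edgeR's fit (0.08 to 4.49) contained that of Furin (0.10 to 1.00). Without IP replicate 3 the log2 fold change of Ifng was 1.00 and that of Furin 0.40. The share of other gene pairs that separate was not tested. Il10 to Gzmb overlapped through IP replicate 3, whose low Il10 count brought the ratio to -2.48 on the log2 scale against -2.19 in the highest Input library. The spread between replicates was larger than counting error throughout: for Gzmb the coefficient of variation was 36.4% in the Input where its read counts alone give 1.54%, and for Ebi3 in the IP it was 50.7% where they give 21.8%.

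The genomic span of a gene, which the choice of these genes did not use, was set beside its estimate. The 3 genes of 4849 bases or less were Gzmb, Ebi3 and Ifng, and they hold both ends of the order. Il10, at 5126 bases, had a log2 fold change of -0.86. Itgb8 and Il1rl1, with spans of 75474 and 60555 bases, lay above the median of all genes. So did the shorter Ifng, Furin (16248 bases) and Lrrc32 (12527 bases), so this position did not set the long genes apart. Spearman's rho of span and log2 fold change was 0.54 over the 10 genes, given as a description of genes measured in the same libraries. The span includes introns and is not the length of the mRNA.

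**Figure D5:**
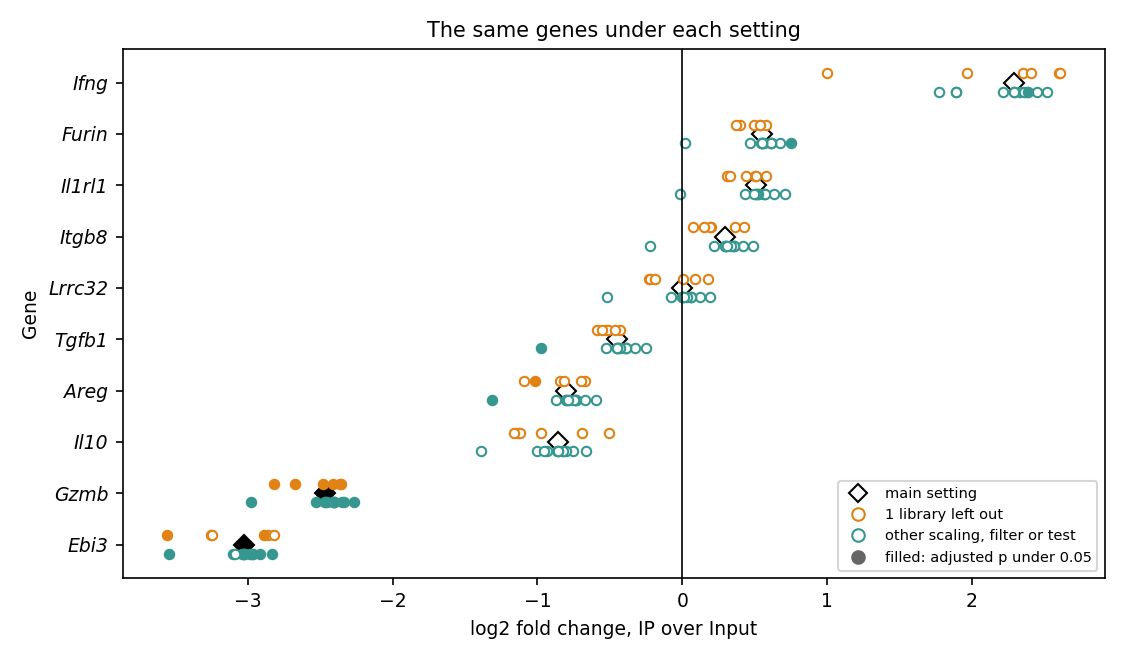
Log2 fold change of IP over Input (x axis) for each of the 10 genes in the main setting (diamond), with 1 library left out (orange) and with another scaling, filter or test (green); filled symbols have an adjusted p under 0.05. Gzmb is filled in every setting, Ebi3 in the main setting and 11 of 18 others, and the single low value of Ifng is the fit without IP replicate 3.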

How the data were processed

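The 10 genes and their grouping were chosen with earlier results of these data known. Each deposited file holds the raw read counts of 1 library by Ensembl gene identifier. Build mm10 and the tools Trimmomatic 0.39, HISAT2 2.1.0, HTSeq and DESeq2 are named in the submitters' processing notes; their roles, the HTSeq version, annotation and strand setting are not given in the sources used. The kit was a stranded one for total RNA, per the labels. The 92 spike-in identifiers (0 to 2 reads per library) and the 5 HTSeq categories were left out; reads in no feature were 49.6% to 72.1% of a file.

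All genes were fitted in R 4.3.3 with edgeR 4.0.16: filterByExpr, then TMM factors, then a robust quasi-likelihood fit on group alone with a two-sided F-test. CPM use TMM-scaled library sizes; standard errors come from the F statistic. Within-library ratios used log2 of counts with a pseudocount of 1 and an exact permutation test. Every one of the 10 genes is named. Read shares, neighbouring pairs and genomic spans were added after the values were seen. Alternatives were other size factors, filters and tests (DESeq2 1.42.0, limma 3.58.1 voom, glmTreat), a replicate block and leaving out each library. Positions come from RefSeq on GRCm38.p6, the assembly of mm10, matched by symbol for 10 of 10 genes. The files hold no molecular identifiers, so counting intervals were not used.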

Additional observations from a re-analysis of the deposited data

Results flagged for a closer look

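On average 71.7% of the reads of an IP file and 50.4% of those of an Input file fell in no annotated feature, and this is listed because those reads lie outside the gene counts and the share in each IP library was above that in each Input library. Their part in the values of the 10 genes was not tested beyond the setting that counts them in the library size. That setting takes every read of a file as the library size and uses no TMM factors, so it does not isolate the reads in no feature.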

How the results depend on the processing

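The number of depleted genes among the 10 was 4 with library sizes from all reads (12.5% of all genes tested), 1 with limma voom (11%), 1 with glmTreat against 1.5-fold (3.78%) and 1 with a replicate block (7.01%), against 2 (6.11%), and 1 to 3 with 1 library left out (3.26% to 8.73%). The number enriched was 1 with upper quartile factors (6.92%) and 1 with DESeq2 (6.63%), against 0 (4.33%), and 0 with any 1 library left out (1.09% to 5.25%). The cause was not tested, except that glmTreat asks for a larger change. The median over all genes differed from that of the main setting by 0.20 with upper quartile factors, 0.12 with total counts and -0.53 with library sizes from all reads. It differed by -0.45 with limma voom, -0.38 with the replicate block and 0.18 where every library had to reach 1 CPM. In these last settings the median change per gene was smaller, at -0.145, -0.145 and 0.0088. With library sizes from all reads Il1rl1 reversed to -0.015 and Itgb8 to -0.22; relative to that shift of the median they stood at 0.51 and 0.30. Lrrc32, at -0.0015, took the opposite sign at 0.19 with upper quartile factors, 0.056 with RLE factors, 0.12 with total counts, 0.0083 where every library had to reach 1 CPM, 0.062 with a mean count of 50, 0.058 with DESeq2, 0.031 with limma voom, 0.012 with the replicate block, and -0.23 to 0.18 with 1 library left out (positive without IP replicate 1 at 0.09, IP replicate 3 at 0.01 and Input replicate 2 at 0.18). The other 7 genes kept their direction in all 18 settings. In the replicate block, Gzmb stayed depleted and the adjusted p of Ebi3 was 0.0654 in edgeR's test. Libraries of equal number were not taken as pairs in the main setting, because the labels do not say that a number marks a shared lysate. The protocol divides a lysate into Input and IP, so they may be pairs. The correlations of their deviations from the group means were 0.10, 0.03 and 0.02, and every library was most like its own number. Such low correlations do not settle whether the libraries are paired. The low counts of Ebi3 in the IP (16 to 30 reads) and of Ifng in the Input (19 to 54 reads) limit what these libraries can show for both genes.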
